A study of Mus musculus with 847 samples.

Results

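The 7 genes described here, Dcx, Sox11, Sox4, Dlx2, Igfbpl1, Cd24a and Draxin, are known from neuroblasts, the young neurons that neural stem cells give rise to. They were chosen by name, and all 7 were found among the 21076 genes of the deposited count table. Their reads were followed through 847 messenger RNA libraries from 15 dissected brain regions of 59 C57BL/6JN mice. The labels name no transgene, deletion or treatment. Each sex was represented by 5 mice at the ages of 3, 12, 15 and 18 months. The oldest mixed age, 21 months, had 6 males beside its 5 females, and the later ages had males only, 5 of them aged 26 months and 3 aged 28 months. The 4 dissections grouped here as neurogenic were the subventricular zone, the olfactory bulb, and the anterior and posterior hippocampus. The 11 other regions were the caudate putamen, cerebellum, choroid plexus, corpus callosum, entorhinal cortex, hypothalamus, medulla, motor cortex, pons, thalamus and visual cortex.

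In the adult mouse brain, neural stem cells in the wall of the lateral ventricle, the subventricular zone, form dividing progenitors and then neuroblasts. The neuroblasts migrate in chains along the rostral migratory stream to the olfactory bulb and mature there into interneurons. A separate stem cell population in the dentate gyrus of the hippocampus forms new granule neurons, and both kinds of neurogenesis are known to decline with age. Several of the 7 genes are also used by other cells, among them ependymal cells, oligodendrocyte precursors and mature neurons. In bulk tissue, fewer cells of a type and less RNA per cell cannot be told apart, and this holds for every value given here.

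The libraries held between 481444 and 26756735 reads in genes, with a median of 6.72e+06, and 10 of them held under 1e6. A region had 51 to 59 libraries. Marker lists were read as a check of the dissections. The summed level of 8 ependymal genes had its highest median in the subventricular zone (438 CPM, reads scaled to a total of 1e6 per library), and 7 genes of olfactory bulb neurons reached a median of 1516 CPM in the olfactory bulb. The 6 genes of dentate granule cells had medians of 874 CPM in the anterior and 544 CPM in the posterior hippocampus, but they ranged down to 80.1 CPM in single posterior libraries. The subventricular zone libraries also held striatal neuron RNA, 266 to 3960 CPM over 6 genes, and choroid plexus RNA, 37.0 to 9079 CPM over 7 genes. The same lists spanned 769 to 5360 CPM and 4.56 to 18567 CPM in the corpus callosum, and so varied widely between mice in both dissections. There were 3 libraries that went against their labels: a subventricular zone library labelled male (12 months) with 116 CPM of the female transcript Xist, a posterior hippocampus library labelled female (15 months) with 24.2 CPM of Y-linked genes, and an entorhinal library (female, 21 months) whose profile correlated at 0.93 with the medulla and at 0.70 with its own region. Slopes, level contrasts, ratios within mice and correlations were also computed without these 3.

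Dcx encodes doublecortin, a microtubule-associated protein of migrating neurons, and lies on chromosome X (GRCm38 positions 143855842 to 143933311, minus strand, 7 merged exons). Sox11 (chromosome 12, 27334264 to 27342574, minus strand) and Sox4 (chromosome 13, 28948919 to 28953713, minus strand) are single-exon genes for related SoxC transcription factors that act in early neuronal differentiation. Dlx2 (chromosome 2, 71543408 to 71546754, minus strand, 3 exons) encodes a homeodomain factor of GABAergic interneuron progenitors and their progeny. Igfbpl1 (chromosome 4, 45809468 to 45826923, minus strand, 5 exons) encodes a secreted protein related to the insulin-like growth factor binding proteins. Cd24a (chromosome 10, 43578284 to 43584265, plus strand, 4 exons) encodes a small surface glycoprotein found on neuroblasts and on ependymal cells. Draxin (chromosome 4, 148098437 to 148130698, minus strand, 7 exons) encodes a secreted axon guidance protein that repels neurites. The libraries carry no strand information, so reads cannot be parted between Sox4 and the overlapping long noncoding RNA Gm26735, or between Draxin and Mad2l2 where these overlap.

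Sox11, Sox4 and Draxin were the members that each fell with age in the subventricular zone, olfactory bulb, anterior hippocampus and corpus callosum, and their promoters are printed for that reason, although Draxin was tested in the olfactory bulb and anterior hippocampus only because of its 3-month libraries. Each line holds the 250 bases before the RefSeq start (GRCm38.p6), read 5′ to 3′ on the minus strand that the gene lies on. The positions are chr12:27342719-27342968 for Sox11, chr13:28953700-28953949 for Sox4 and chr4:148130699-148130948 for Draxin. Capitals mark every match, on either strand, to CAGCTG (an E-box of the kind bound by proneural factors), CCAAT (the CCAAT box, ATTGG on the opposite strand) and ACAAAG (a SOX core, CTTTGT on the opposite strand).
Sox11: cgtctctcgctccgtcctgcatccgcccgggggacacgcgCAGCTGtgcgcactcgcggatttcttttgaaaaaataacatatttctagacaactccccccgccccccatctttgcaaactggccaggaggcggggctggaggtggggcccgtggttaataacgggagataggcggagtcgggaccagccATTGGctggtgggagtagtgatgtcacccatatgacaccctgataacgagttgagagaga
Sox4: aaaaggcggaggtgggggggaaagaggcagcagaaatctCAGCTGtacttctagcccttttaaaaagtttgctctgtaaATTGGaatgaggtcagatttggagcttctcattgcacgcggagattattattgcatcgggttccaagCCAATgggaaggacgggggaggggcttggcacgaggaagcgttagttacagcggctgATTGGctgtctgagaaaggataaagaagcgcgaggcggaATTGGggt
Draxin: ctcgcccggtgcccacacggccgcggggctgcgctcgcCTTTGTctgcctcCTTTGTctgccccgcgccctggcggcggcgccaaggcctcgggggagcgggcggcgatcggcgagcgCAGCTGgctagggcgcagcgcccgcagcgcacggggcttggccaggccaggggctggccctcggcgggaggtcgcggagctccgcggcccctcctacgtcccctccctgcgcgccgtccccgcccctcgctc

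All 3 stretches held CAGCTG once, 210, 211 and 132 bases before the start, a motif found in 16.3% of the 32851 promoter windows of 300 bases. Sox4 held the CCAAT box 4 times, Sox11 held it once and Draxin had no match, against 37.4% of all windows with at least 1. Draxin held ACAAAG at 2 places, 212 and 199 bases before the start (18.7% of all windows). The homeodomain core TAATTA (5.29% of all windows) matched in neither Sox gene nor Draxin, but was present in both promoter windows of Dcx. A match is a description of the letters. RefSeq windows were found for 5 of the 7 members, and none is printed for Igfbpl1 or Cd24a.

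The members were highest in the olfactory bulb or the subventricular zone, with Cd24a highest in the medulla. Dcx ranged from 134 to 246 CPM in the olfactory bulb (median 186), and every bulb library lay above every library of the other regions. The subventricular zone came next for Dcx, at 27.4 to 63.8 CPM with a median of 37.2, and overlapped the visual cortex, at 23.4 to 50.3 CPM with a median of 32.4. In the hippocampus Dcx was low, with a median of 15.0 CPM in the posterior part and 8.46 CPM in the anterior part, below the cortical regions. The other medians of Dcx ran from 26.8 CPM in the entorhinal cortex over the hypothalamus (23.6), motor cortex (22.7), corpus callosum (16.4), choroid plexus (14.6), thalamus (12.3), pons (8.90), caudate putamen (8.62) and medulla (7.43) to 2.85 CPM in the cerebellum, with SDs of 1.13 to 5.22 CPM.

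Sox4 was also highest in the olfactory bulb, at 125 to 233 CPM (median 169), and then in the subventricular zone, at 24.8 to 118 CPM (median 60.0). The corpus callosum came next for Sox4, with a median of 32.6 CPM. After it the Sox4 medians were close together, at 28.7 CPM in the visual cortex, 27.3 in the hypothalamus, 25.5 in the anterior hippocampus, 25.3 in the entorhinal cortex and 23.5 in the posterior hippocampus, and ran on from 21.3 in the motor cortex to 11.1 in the medulla (SDs of 1.96 to 9.81 CPM). Sox11 had its highest level in the subventricular zone (31.5 to 118 CPM, median 57.4), and the entorhinal cortex (median 44.1 CPM), olfactory bulb (43.6), anterior hippocampus (42.1), hypothalamus (40.9) and posterior hippocampus (40.3) were close to each other. Below these stood the thalamus (34.7), corpus callosum (29.9), choroid plexus (29.8), visual cortex (28.3), caudate putamen (17.3), motor cortex (14.8), pons (13.0) and medulla (8.61), with SDs of 2.03 to 10.3 CPM, and the cerebellum was lowest at 6.48 CPM.

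Dlx2 ranged from 63.1 to 96.5 CPM in the olfactory bulb (median 85.3) and from 17.3 to 47.8 CPM in the subventricular zone (median 29.4), and the hypothalamus was next with a median of 14.2 CPM. The corpus callosum, cortical regions, choroid plexus and posterior hippocampus had Dlx2 medians between 4.44 and 6.57 CPM, the caudate putamen 2.79 and the anterior hippocampus 2.70, and the thalamus and pons had medians of 0. In the hindbrain Dlx2 was at or near 0, with 1 read in 1 of 58 medulla libraries and none in 58 cerebellum libraries, which allows up to 0.00786 CPM (3 reads over the group's reads, counting error only). Igfbpl1 was the member that best set the subventricular zone apart, at 7.01 to 24.5 CPM with a median of 15.6. It reached a median of 4.44 CPM in the olfactory bulb and 1.51 CPM in the corpus callosum, and its median was 0 in 9 of the 15 regions, both hippocampus dissections included.

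Cd24a went against the pattern of the other members. Its median was 55.2 CPM in the medulla (14.3 to 121), 52.1 CPM in the subventricular zone (23.7 to 112) and 30.5 CPM in the olfactory bulb, and it was among its lowest in the posterior (4.10) and anterior (3.33) hippocampus. The hypothalamus (27.2), corpus callosum (20.6) and choroid plexus (19.7) lay between, the other medians were at 10.6 CPM or lower, and single libraries reached 128 CPM in the visual cortex and 109 CPM in the cerebellum. Draxin was rare everywhere, with a median of 1.82 CPM in the subventricular zone (0 to 7.22) and 1.51 CPM in the corpus callosum, and below 1 CPM elsewhere. Per kilobase of merged exons, the scale on which levels of different genes can be compared, the subventricular zone means ran from 20.0 CPM per kb for Cd24a over 13.5 (Sox4), 10.4 (Dlx2), 7.39 (Sox11), 4.76 (Igfbpl1) and 3.03 (Dcx) to 0.433 for Draxin. In the olfactory bulb Sox4 (35.7 CPM per kb) and Dlx2 (29.3) led, Dcx was at 14.7 and Igfbpl1 at 1.54.

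**Figure D1:**
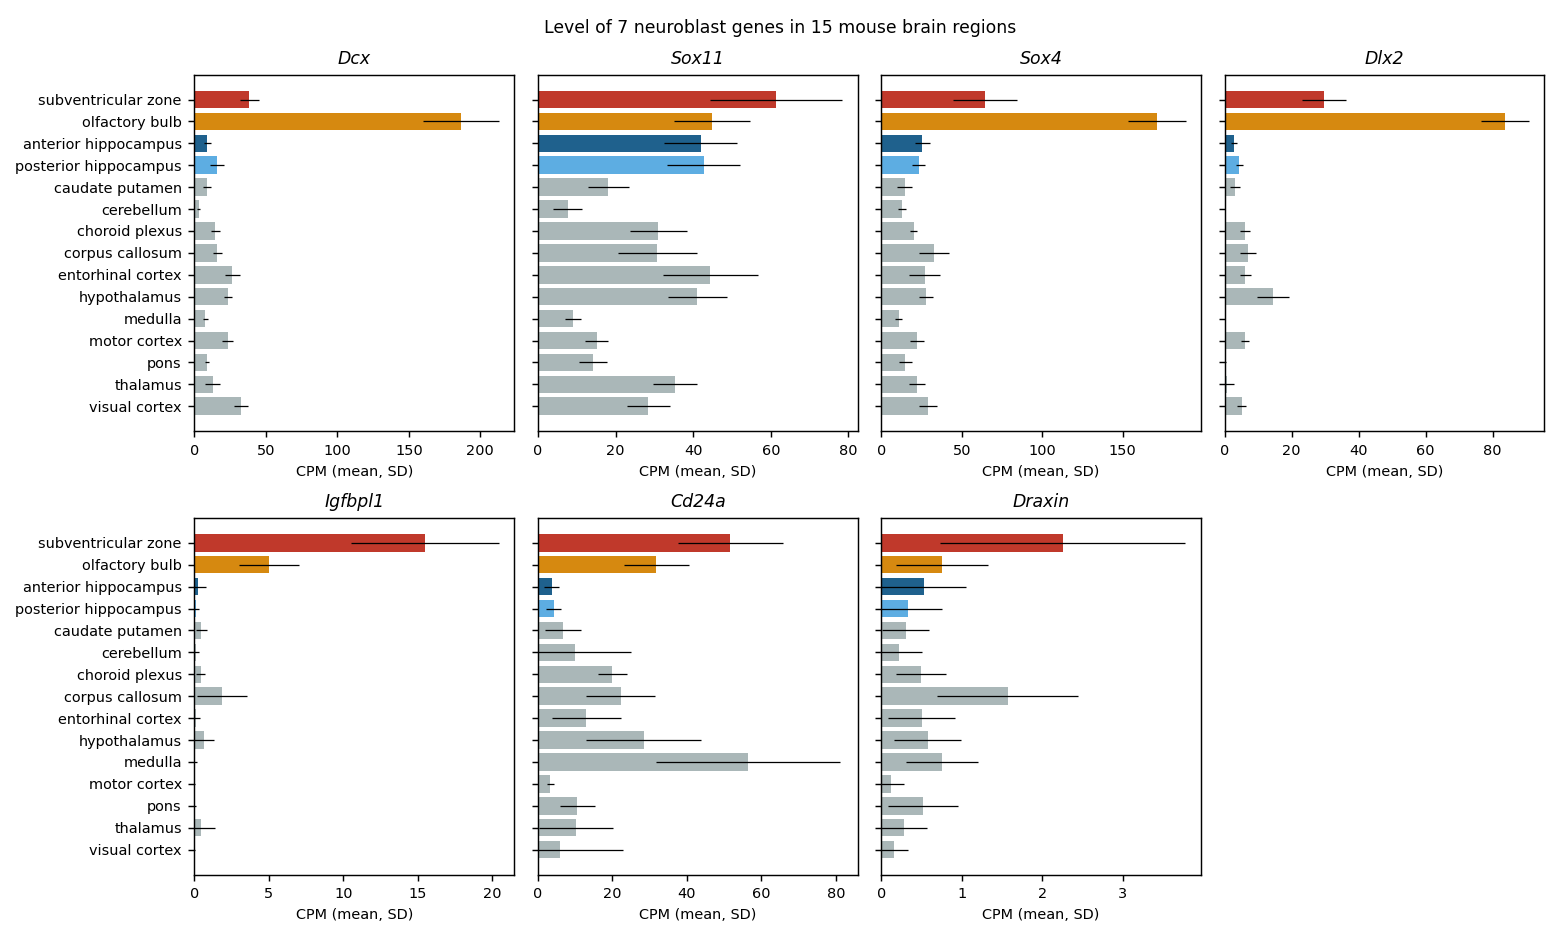
Mean level of each member in each of the 15 regions, in CPM on axes that start at 0; bars are means over the libraries of a region and error bars are SD. Dcx, Sox4 and Dlx2 peak in the olfactory bulb, Sox11 and Igfbpl1 in the subventricular zone, and Cd24a stands at about the same height in the medulla and the subventricular zone.

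Most neighbours in these orders did not differ beyond their spread. Of the 14 steps between neighbouring regions, the difference of the means exceeded the larger SD at 4 for Dcx, 3 for Sox11, 3 for Sox4, 4 for Dlx2, 3 for Igfbpl1, 1 for Cd24a and 1 for Draxin.

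The level of each member in a neurogenic dissection was then set against the mean of the other regions within the same mouse (a ratio with 0.1 CPM added to both, tested by sign-flip permutation over mice with Benjamini-Hochberg adjustment over 28 tests). All 7 members were higher in the subventricular zone, where the median ratio over 55 mice was 2.37 for Dcx, 2.43 for Sox11, 2.85 for Sox4, 2.92 for Cd24a, 3.45 for Draxin, 6.94 for Dlx2 and 35.1 for Igfbpl1. The ratio was above 1 in 51 of 55 mice for Draxin, in 54 for Sox4 and in all 55 for the other members (adjusted permutation p = 1.2e-05 each, from the smallest p that 100000 permutations can give). No share of all genes was computed for this test, here or in the other dissections, so its counts of members have no background beside them.

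In the olfactory bulb 6 of the 7 were higher by the same test over 58 mice, with median ratios of 19.1 for Dlx2, 11.7 for Dcx, 11.1 for Igfbpl1, 8.00 for Sox4, 1.80 for Sox11 and 1.77 for Cd24a. Draxin had a ratio of 1.40 there and was higher in 38 mice (adjusted permutation p = 0.30). In both hippocampus dissections Sox11 was higher, by a median of 1.64 in the anterior part (55 of 57 mice) and 1.71 in the posterior part (58 of 58), and Sox4 less so, by 1.17 (49 of 57) and 1.08 (41 of 58, adjusted permutation p = 0.0023). Cd24a was lower in both, at 0.208 and 0.247 of the mean of the other regions, and so were Igfbpl1 at 0.342 and 0.295, Dlx2 in the anterior part (0.629) and Draxin in the posterior part (0.608). Dcx was lower in the anterior hippocampus (0.588, in 57 of 57 mice) and stood at 0.983 in the posterior part (adjusted permutation p = 0.14). No call among the 28 ratios changed without the 3 libraries that went against their labels.

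An edgeR quasi-likelihood fit over all 847 libraries gave the same contrast on the log2 scale for the 5 members with reads throughout. In the subventricular zone all 5 were higher than the mean of the 11 other regions, by 1.42 ± 0.04 (SE) for Dcx, 1.39 for Sox11, 1.58 for Sox4, 1.97 ± 0.08 for Cd24a and 2.26 ± 0.09 for Draxin, where 43.6% of the 15069 genes tested were higher there. All 5 were also higher in the olfactory bulb (43.3% of genes), where the difference was 3.70 for Dcx and 2.99 for Sox4. In the anterior hippocampus 3 were higher and 2 lower, against 39.9% and 43.3% of all genes, and in the posterior hippocampus 3 were higher and 2 lower, against 40.5% and 40.4%. Differences between regions were thus common among all genes, and the members' counts are close to that background where they are mixed in direction.

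Some small hippocampal differences were not the same in the fit and in the ratios within mice, which differ in the average, the scaling, the pseudocount and the test. Dcx in the posterior hippocampus was 0.19 higher on the log2 scale in the fit, and Draxin in the anterior hippocampus was 0.29 higher (edgeR adjusted p = 0.046). By the ratios, Dcx was not called and Draxin was lower (median ratio 0.899, above 1 in 24 of 57 mice, adjusted permutation p = 0.021), although its mean level was 0.527 CPM there and 0.495 CPM over the other regions. The Draxin call of the fit was lost in 10 of 12 fits that each left out 1 mouse. No level call of the fit changed without the 3 libraries that went against their labels.

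With age the members fell far more often than they rose. Slopes were fitted in each region as log2 change per month with sex as a covariate (edgeR quasi-likelihood test, Benjamini-Hochberg adjustment over all genes of the region). Of 105 pairs of a member and a region, 82 passed the filter on low counts, and of these 30 fell and 1 rose, where over all genes and regions 5.1% fell and 6.37% rose. The slope was below 0 in 64 of the 82. There were 3 pairs that would have failed the filter without their 3-month libraries, Draxin in the olfactory bulb and anterior hippocampus and Igfbpl1 in the thalamus, and of the other 79 pairs 28 fell. Of all pairs, 31 fell without the 3 libraries that went against their labels. Mice 16 to 56, numbered apart from the mice of 12, 26 and 28 months, gave 28 pairs on their own, and males alone gave 24. Sox11 fell in 12 of 15 regions and Sox4 in 9 of 15, and the slope of both was below 0 in all 15. Draxin fell in the subventricular zone and corpus callosum and was not called in the medulla. It was also called lower in the olfactory bulb and anterior hippocampus, where no library after 3 months reached the filter level (1.68 and 1.49 CPM), so that those calls follow in part from the filter. Fitted without the filter in the 10 other regions, Draxin fell in 1, the posterior hippocampus (slope -0.096, edgeR adjusted p = 0.0012), and 5 slopes were above 0. Dcx fell in 2 regions and rose in 1 of 15, Cd24a fell in 1 of 15, Dlx2 in 1 of 12 and Igfbpl1 in 1 of 5.

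In the subventricular zone 3 of the 7 members fell, against 3.67% of all genes there, and no member was among the 4.85% of genes that rose. Sox11 was at 60.2 to 118 CPM (median 82.3) in the 10 libraries of 3 months and at 51.2, 51.5 and 53.7 CPM in those of 28 months. These groups did not overlap, and the slope was -0.038 ± 0.0044 per month (adjusted p = 8.8e-09). Sox4 went from 66.9 to 118 CPM (median 81.8) at 3 months to 44.1, 46.4 and 46.9 CPM at 28 months, again without overlap, with a slope of -0.033 ± 0.0064 (adjusted p = 0.0003). Draxin went from 1.08 to 7.22 CPM (median 3.58) to 0.98, 1.74 and 1.78 CPM, with overlap, and its slope was -0.058 ± 0.013 (adjusted p = 0.0019). All 3 also fell without the libraries that went against their labels, with slopes of -0.038, -0.034 and -0.059 (edgeR), and within mice 16 to 56, with slopes of -0.043, -0.033 and -0.060. For the libraries of 26 and 28 months pooled, 0.409% of all genes lay wholly below those of 3 months in this region. The share for 28 months alone, which rests on 3 libraries, was not computed.

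The other 4 members did not pass the test in the subventricular zone. Dcx was at 33.3 to 63.8 CPM (median 43.9) at 3 months and at 33.5, 36.1 and 36.9 CPM at 28 months, with a slope of -0.010 ± 0.0039 (edgeR adjusted p = 0.088). Cd24a had the same slope, -0.010 ± 0.0066 (adjusted p = 0.38). Dlx2 went from a median of 32.8 CPM at 3 months to 31.0, 36.4 and 43.2 CPM at 28 months, and Igfbpl1 from 15.4 CPM to 19.0, 19.4 and 24.5 CPM. The highest Igfbpl1 level of the region was therefore in a 28-month library, and the slopes of both genes were close to 0, at 0.0014 for Dlx2 and 0.0032 for Igfbpl1 (adjusted p = 0.92 and 0.88).

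In the olfactory bulb 4 of the 6 members other than Draxin fell (9.01% of all genes). Igfbpl1 was at 7.18 to 11.2 CPM (median 8.42) at 3 months, at 4.45 to 6.09 CPM at 12 months, and at 2.65, 2.69 and 3.79 CPM at 28 months. The 3-month libraries overlapped with neither later group, and the slope was -0.062 ± 0.0044 per month (edgeR adjusted p = 8.5e-18). Cd24a went from 41.3 to 62.8 CPM (median 45.0) to 19.4, 31.7 and 34.7 CPM, a slope of -0.034 ± 0.0045 (adjusted p = 7.8e-08). Sox11 went from 51.1 to 74.2 CPM (median 60.3) to 37.2, 38.7 and 44.1 CPM, a slope of -0.032 ± 0.0030 (adjusted p = 2.1e-12). In neither gene did the groups overlap. For the libraries of 26 and 28 months pooled, 0.414% of all genes lay wholly below those of 3 months in the bulb. The share for 12 or 28 months alone was not computed.

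Sox4, the second SoxC factor, fell in the bulb from 174 to 233 CPM (median 194) to 160, 169 and 177 CPM, with a slope of -0.015 ± 0.0019 (edgeR adjusted p = 3.0e-08). Draxin was low at every age, at 0.94 to 2.81 CPM at 3 months and 0, 0.29 and 1.07 CPM at 28 months, with a slope of -0.072 ± 0.015 (adjusted p = 0.00031). It is left out of the count for the bulb, since it was tested there only because of its 3-month libraries. Dcx and Dlx2, the members with the highest bulb levels per kilobase after Sox4, were not called: their slopes were -0.0027 (adjusted p = 0.43) and 0.00094 (adjusted p = 0.81), and Dlx2 was at 69.2 to 90.4 CPM at 3 months against 83.0, 88.8 and 92.4 CPM at 28 months.

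**Figure D2:**
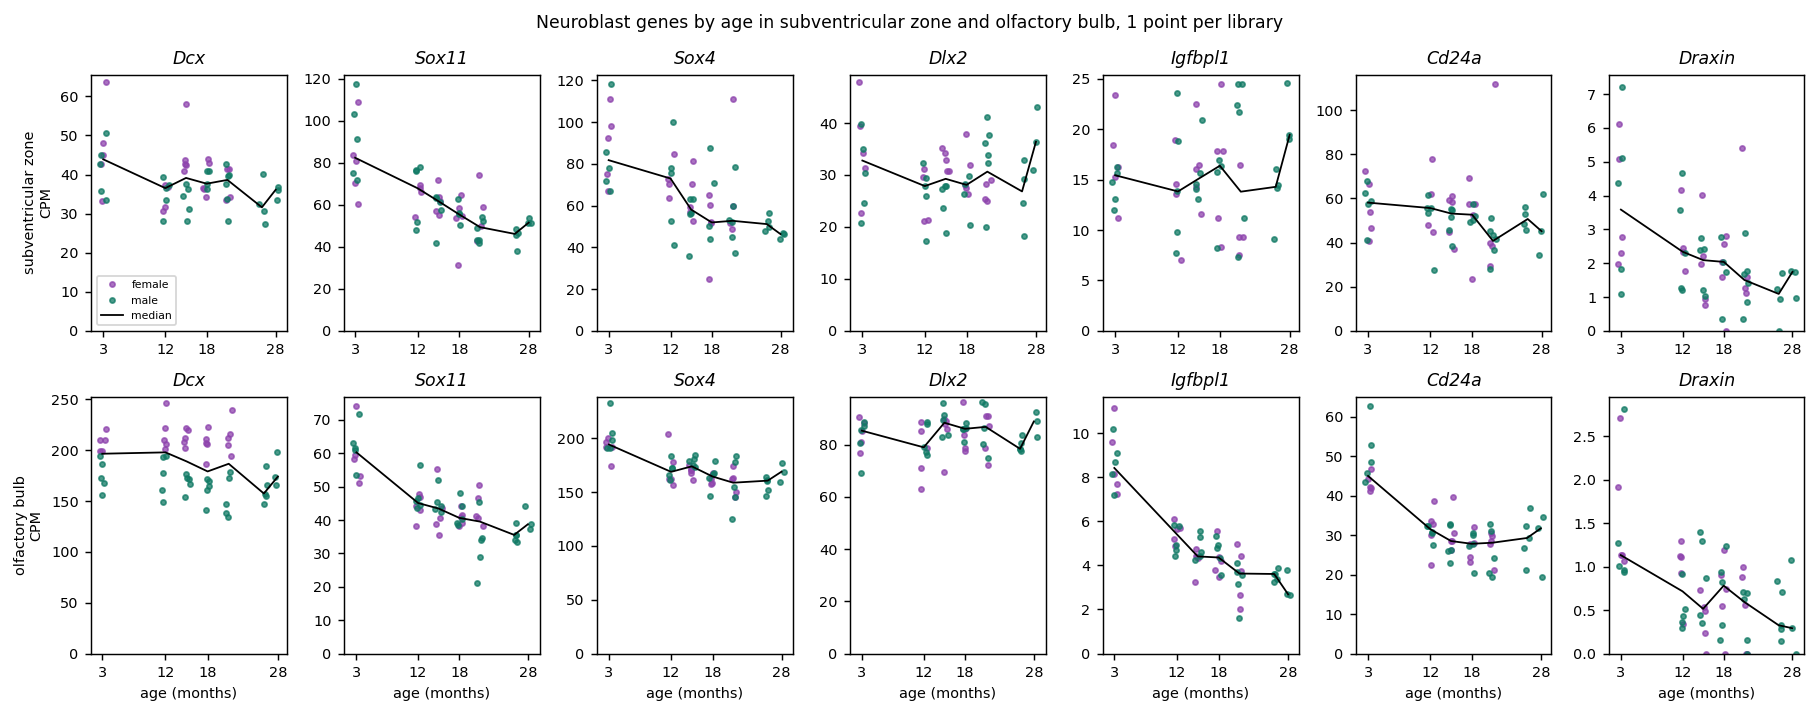
Level in CPM (vertical axes, linear) against age in months for the 7 members in the subventricular zone and the olfactory bulb; each point is 1 library, coloured by sex, and the line joins the medians of the ages. Sox11 and Sox4 decline in both regions, Igfbpl1 declines in the olfactory bulb from 3 to 12 months and not in the subventricular zone, and Dlx2 is level in both.

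In the anterior hippocampus 3 of 5 members fell, against 4.52% of all genes, none rose (6.89% of genes), and Draxin, which passed the filter only through its 3-month libraries, is left out of this count. Dcx was at 10.0 to 14.4 CPM (median 11.8) at 3 months and at 4.51 to 10.5 CPM (median 6.61) at 12 months, but the 28-month libraries were at 6.98, 11.7 and 12.5 CPM, 1 below the young range and 2 inside it. The fitted slope was -0.020 ± 0.0058 (edgeR adjusted p = 0.014) and missed the threshold under 3 alternative settings, with an adjusted p of up to 0.17. Within mice 16 to 56 it was -0.034 (adjusted p = 4.0e-05), and Cd24a, not called over all mice at -0.023 (adjusted p = 0.17), had a slope of -0.052 there (adjusted p = 0.00013). Draxin was at 0.45 to 2.30 CPM (median 1.27) at 3 months, at 0 to 0.68 CPM at 12 months and at 0.16, 0.45 and 0.62 CPM at 28 months, with a slope of -0.089 ± 0.014 (adjusted p = 4.7e-06). For Sox11 the 3-month range was 42.0 to 55.8 CPM and the 28-month values were 37.1, 39.1 and 42.9 CPM (slope -0.021 ± 0.0049, adjusted p = 0.0022). Sox4 went from 24.9 to 39.1 CPM to 22.2, 26.8 and 28.2 CPM (slope -0.019 ± 0.0036, adjusted p = 0.00014).

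Igfbpl1 did not pass the filter in the hippocampus. In the anterior hippocampus it had reads in 10 of 10 libraries at 3 months (0.19 to 1.96 CPM, median 1.32), and its median was 0 at every later age, with reads in 4 of 9 libraries at 12 months, 4 of 9 at 15 months, 2 of 10 at 18 months, 2 of 11 at 21 months, 1 of 5 at 26 months and 1 of 3 at 28 months. Fitted without the filter, the slope was -0.24 ± 0.020 (edgeR adjusted p = 4.5e-17). In the posterior hippocampus it had reads in 7 of 10 libraries at 3 months, with a highest value of 1.23 CPM (unfiltered slope -0.16 ± 0.032, adjusted p = 0.00055). Sox11 was the 1 member of 5 that fell in the posterior hippocampus (2.29% of all genes), from 40.8 to 65.5 CPM (median 55.5) at 3 months to 31.0, 36.8 and 38.2 CPM at 28 months (slope -0.025 ± 0.0044, adjusted p = 9.0e-05). Without the libraries that went against their labels Cd24a also passed there, at -0.031 (adjusted p = 0.025), having missed the threshold with them at -0.028 (adjusted p = 0.11).

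The decline was not limited to the neurogenic dissections. In the corpus callosum 5 of the 7 fell (8.95% of all genes). Sox11 went from 33.4 to 59.1 CPM (median 45.9) at 3 months to 20.9, 26.8 and 28.7 CPM at 28 months (slope -0.046 ± 0.0058, edgeR adjusted p = 1.5e-08), and Sox4 from 32.6 to 53.6 CPM (median 42.7) to 24.2, 26.8 and 30.7 CPM (slope -0.034, adjusted p = 1.4e-05). Draxin went from 1.13 to 4.27 CPM (median 2.74) to 0.54, 0.77 and 0.89 CPM (slope -0.062 ± 0.010, adjusted p = 6.1e-06). Dlx2 fell in no other region, and its 3-month range of 5.95 to 15.6 CPM overlapped with the 28-month values of 3.57, 5.16 and 11.0 CPM (slope -0.035 ± 0.0076, adjusted p = 0.0005). The Dcx slope of -0.016 (adjusted p = 0.020) missed the threshold under 3 alternative settings.

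Oligodendrocyte precursors divide in all of these regions and are known to use some of the members, so their markers were read beside the slopes. Gpr17, a receptor of committed oligodendrocyte precursors, fell in the corpus callosum by edgeR (-0.051 per month). The list of 6 genes did not move one way: in the corpus callosum 1 fell and Bcas1 (0.017) and Enpp6 (0.014) rose (8.95% of all genes fell and 9.64% rose there), and its sum was at 542 to 759 CPM at 3 months and 743, 762 and 909 CPM at 28 months. Of the 5 markers of earlier oligodendrocyte precursors none changed by edgeR in the corpus callosum or the subventricular zone, 1 in each having an unadjusted p under 0.05. The part of these cells in the members' slopes was not tested.

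In the motor cortex 2 of 5 members fell (8.89% of all genes). Sox11 went from 15.3 to 21.5 CPM (median 20.0) to 10.8, 12.0 and 14.2 CPM (slope -0.029 ± 0.0031, edgeR adjusted p = 6.9e-11), and Sox4 from 26.7 to 32.1 CPM (median 29.4) to 15.9, 17.2 and 21.6 CPM (slope -0.029 ± 0.0028, adjusted p = 3.3e-12). The visual cortex was the 1 region where a member rose (5.8% of all genes): Dcx was at 25.5 to 34.5 CPM at 3 months and at 36.3, 38.2 and 50.3 CPM at 28 months, a slope of 0.011 ± 0.0033 (adjusted p = 0.030, and up to 0.13 under the alternatives). Elsewhere 2 members fell in the visual cortex (4.94%), 2 in the choroid plexus (9.28%), 2 in the medulla (4.21%), and 1 each in the caudate putamen (6.26%), hypothalamus (3.21%), pons (1.07%) and thalamus (2.01%). In the cerebellum (8.41%) none of 4 was called by edgeR or by DESeq2, and 1 had an unadjusted p under 0.05. The same held in the entorhinal cortex, where 0.0413% of all genes fell, for 5 members with 1 at an unadjusted p under 0.05, with and without the library that was like the medulla. Sox11 in the hypothalamus (slope -0.012, adjusted p = 0.046) missed the threshold under 4 alternative settings.

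**Figure D3:**
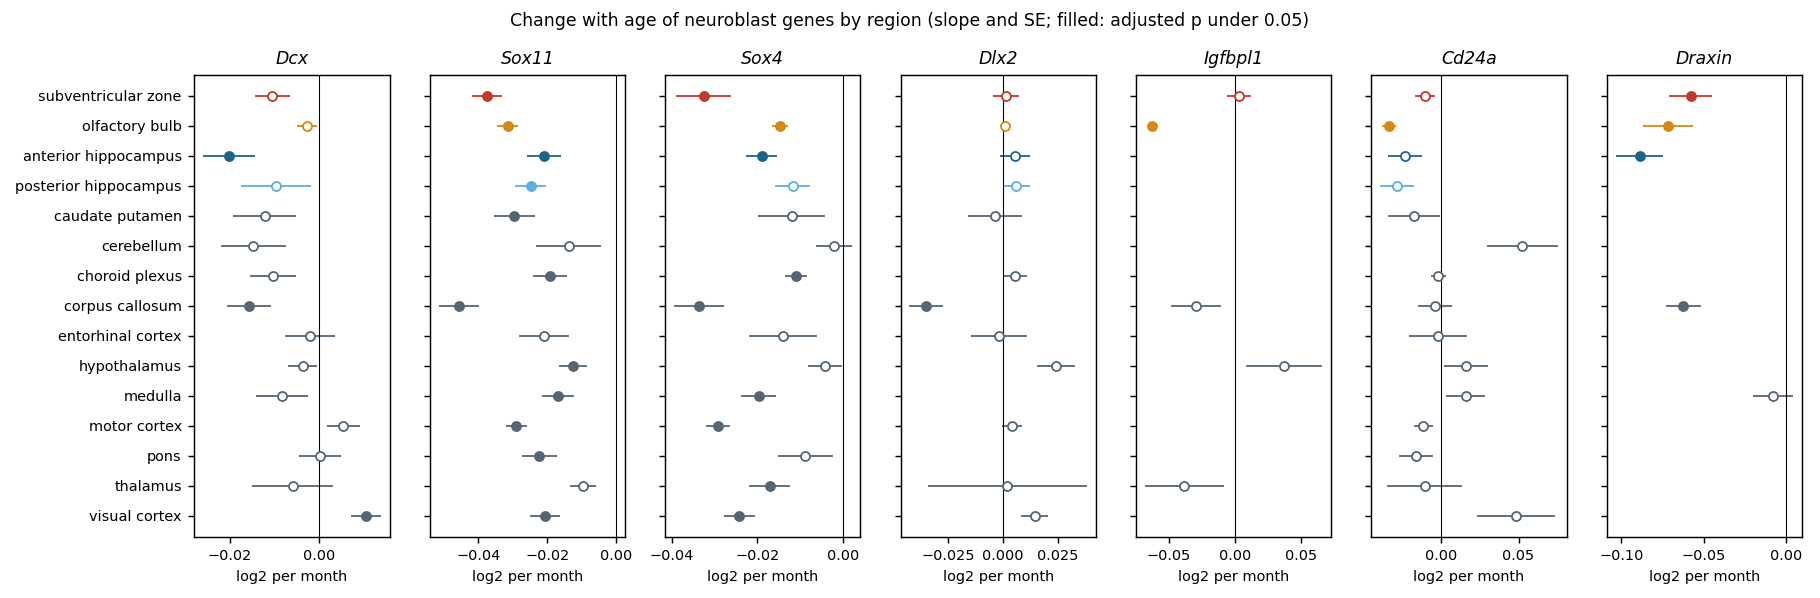
Age slope of each member in each region where it passed the filter, in log2 change per month, with SE bars; filled points have an edgeR adjusted p under 0.05. All Sox11 and Sox4 points lie below 0, 12 and 9 of 15 of them filled, while most Dlx2 points lie at or above 0.

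Pooled, the libraries of 26 and 28 months lay wholly below those of 3 months for 9 pairs of a member and a region. These were Sox11 in the subventricular zone, olfactory bulb, corpus callosum and motor cortex, Sox4 in the subventricular zone, corpus callosum and motor cortex, and Igfbpl1 and Cd24a in the olfactory bulb. Over all genes the share with such a gap was 0.409% in the subventricular zone, 0.414% in the olfactory bulb, 0.429% in the corpus callosum and 0.34% in the motor cortex. The old median was 0.586 of the young one for Sox11 and 0.584 for Sox4 in the subventricular zone, 0.415 for Igfbpl1 in the olfactory bulb, and 0.539 for Sox11 in the corpus callosum.

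Each later age was compared with 3 months by edgeR, which gave 106 lower and 1 higher of 492 comparisons of a member, against 1.64% lower over all genes. These include Draxin in the olfactory bulb (lower at 5 ages) and anterior hippocampus (lower at 6 ages), tested there only because of its 3-month libraries. Igfbpl1, Cd24a, Sox11 and Sox4 in the olfactory bulb were all lower at 12 months already (4.23% of all genes), and Igfbpl1 was lower by 0.72 on the log2 scale at 12 months and by 1.55 at 28 months (1.47% of genes). In the anterior hippocampus Dcx (lower by 0.86) and Sox4 were also lower at 12 months (1.4% of genes). Both were called lower again at 18, 21 and 26 months. Neither was called at 15 months (log2 differences of -0.35 and -0.32, edgeR adjusted p = 0.35 and 0.16) or at 28 months (-0.20 and -0.39, adjusted p = 0.53 and 0.061). In the subventricular zone Sox11 was first lower at 15 months, by 0.53 (0.0884% of genes), and Sox4 and Draxin at 21 months (1.24%). In the posterior hippocampus Sox11 was first lower at 18 months (0.107%). Whether these ages differ between regions was not tested. These comparisons share the 3-month libraries, and the mice of 12, 26 and 28 months carry other number ranges (1 to 15 and 57 to 59) than those of 3 to 21 months (16 to 56). Within mice 16 to 56 alone, which hold no mice of 12, 26 or 28 months, 50 of 240 comparisons were lower, against 57 of 246 at the same ages in the fit over all mice.

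Whether slopes differed between regions was tested directly in the fit over all libraries. The Draxin slope was lower than the mean of the 11 other regions in each neurogenic dissection, by 0.058 log2 units per month in the subventricular zone, 0.070 in the olfactory bulb, 0.086 in the anterior and 0.093 in the posterior hippocampus (edgeR adjusted p = 0.00025, 0.0028, 7.9e-05 and 0.0050). The background shares of genes with a lower slope were 1.23%, 3.33%, 0.0995% and 0.219%. With males alone the olfactory bulb and posterior hippocampus differences missed the threshold (adjusted p = 0.305 and 0.146). Of the 11 other regions, Draxin passed the filter of the region fits only in the corpus callosum and medulla. The mean slope of the others thus rests mostly on regions with few Draxin reads, and Draxin failed that filter in the posterior hippocampus too. In the olfactory bulb and anterior hippocampus it passed only through its 3-month libraries, and no later library reached the filter level. Between the subventricular zone and the corpus callosum the Draxin slope differed by 0.0028 (edgeR adjusted p = 0.98). Sox4 declined faster in the subventricular zone, by 0.018 (adjusted p = 0.019), which 2 alternatives lost with an adjusted p of up to 0.32. For Sox11, which fell nearly everywhere, the subventricular zone slope was lower by 0.017 (adjusted p = 0.071), or past the threshold at 0.046 without the libraries that went against their labels. Dcx (adjusted p = 0.70) and Cd24a were not called there.

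The Igfbpl1 slope differed between the neurogenic dissections with the most reads of it. Its slope in the subventricular zone was higher than in the olfactory bulb by 0.066 log2 units per month (edgeR adjusted p = 8.2e-06, where 2.06% of genes were higher). No difference from the hippocampus is given for Igfbpl1, which had reads in 24 of 57 anterior hippocampus libraries. Sox4 was the reverse, with a lower slope in the subventricular zone than in the bulb by 0.020 (adjusted p = 0.045, 0.889% of genes), a call that 3 alternatives lost. Between the subventricular zone and the corpus callosum no member's slope differed past the threshold by edgeR, and 2 of 7 had an unadjusted p under 0.05 (background 0.0133% higher and 0.252% lower), and the difference was largest for Dlx2 at 0.034 (adjusted p = 0.20).

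Few members differed between the sexes. Among mice of 3 to 21 months, the ages that hold both sexes, 2 of 79 pairs differed between males and females, against 3.01% of all genes, and 8 had an unadjusted p under 0.05. Dcx in the olfactory bulb was at 186 to 246 CPM (median 210) in 25 females and at 134 to 194 CPM (median 170) in 25 males, so that the sexes barely overlapped. Males were lower by 0.35 ± 0.034 on the log2 scale (edgeR adjusted p = 3.2e-11, where 2.12% of all genes differed in the bulb), and between 0.34 and 0.36 lower when any 1 of 10 mice was left out. The value within mice 16 to 56 was -0.36, and the value in the 12-month mice alone was -0.31 (adjusted p = 0.20). The female mean exceeded the male mean at each of the 5 ages, from 208 against 175 CPM at 3 months to 213 against 154 CPM at 21 months. No other member tested in the bulb differed between the sexes past the threshold, the differences being 0.06 for Sox11, 0.04 for Dlx2 and 0.02 for Sox4, and Dcx in the subventricular zone had a difference of -0.11 (unadjusted p = 0.077).

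**Figure D4:**
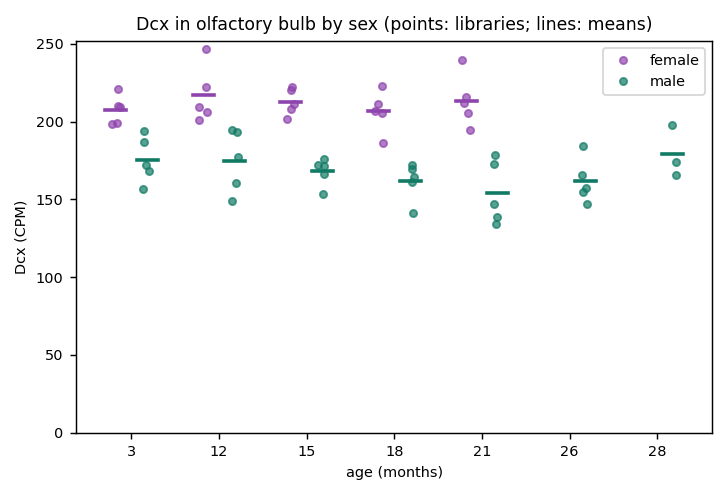
Dcx in the olfactory bulb in CPM by age in months, with the ages evenly spaced. Each point is 1 library, females and males are in different colours, and short lines mark the mean of each sex at each age. Female points lie above nearly all male points from 3 to 21 months, and the 26- and 28-month points are males only.

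The second difference was Sox11 in the hypothalamus, at 28.6 to 45.0 CPM (median 39.0) in 24 females and 26.2 to 63.5 CPM (median 45.8) in 25 males, with wide overlap. Males were higher by 0.25 ± 0.059 (edgeR adjusted p = 0.0066), where 5.43% of all genes differed in that region, by 0.27 within mice 16 to 56 and by 0.18 in the 12-month mice alone (adjusted p = 0.60). No member's age slope differed between the sexes in any of the 79 pairs by edgeR (smallest adjusted p = 0.244, 9 at an unadjusted p under 0.05, background 0.0694%).

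Within a region, mice of the same age and sex still differed, and some pairs of members varied together. Residual log2 levels after age and sex were correlated for 56 pairs of members in the 4 neurogenic dissections (permutation tests, Benjamini-Hochberg adjusted): 24 passed, 21 of them positive, and the median Pearson's r over the 56 was 0.15. No share of pairs of other genes was computed beside these counts. Without the 3 libraries that went against their labels the same number passed, and r moved by at most 0.043 among the pairs that passed. Of 21 pairs in the subventricular zone, 12 passed over 55 mice. Sox11 and Sox4 had Pearson's r = 0.73 (Spearman's rho = 0.55, adjusted permutation p = 9.3e-05), r = 0.62 without the 2 mice farthest from the median, and r = 0.77 in mice 16 to 56. Sox4 with Draxin had r = 0.65 (rho = 0.56, adjusted permutation p = 9.3e-05, 0.50 without the 2 mice), and Sox11 with Draxin r = 0.60 (rho = 0.49, the same p, 0.49 without them).

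Igfbpl1 went with Dlx2 and against Sox4. Dlx2 and Igfbpl1 had r = 0.57 (rho = 0.51, adjusted permutation p = 9.3e-05, 0.53 without the 2 farthest mice), whereas Sox4 and Igfbpl1 had r = -0.46 (rho = -0.33, adjusted permutation p = 0.0017, -0.35 without them). Sox11 and Igfbpl1 had r = -0.33 (rho = -0.28, adjusted permutation p = 0.031 for r and 0.098 for rho), and r = -0.21 without mice 39 and 44, the mice with the lowest Sox11 at 18 months and the highest at 21 months. Dcx was correlated with Sox11 at r = 0.52 (rho = 0.44, adjusted permutation p = 0.00056, 0.50 without them). Other pairs that passed were also weaker without mice 39 and 44. Cd24a with Draxin had r = 0.19 (0.42 with them), Sox11 with Cd24a 0.31 (0.50) and Sox4 with Cd24a 0.37 (0.58). Igfbpl1 with Draxin had r = -0.24 (-0.36 with them). Slightly higher without these mice were Dcx with Sox11 (0.53), Dcx with Dlx2 (0.41) and Dlx2 with Igfbpl1 (0.60). In the olfactory bulb 2 of 15 pairs passed, in the anterior hippocampus 3 of 10 and in the posterior hippocampus 7 of 10.

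The same residuals of the subventricular zone moved with markers of neighbouring cell types, which were measured in the same libraries. There, Cd24a had r = 0.78 with the summed ependymal list (rho = 0.76, adjusted permutation p = 0.00018, 0.70 without the 2 farthest mice). The summed cell division list of 11 genes had r = 0.79 with Draxin, 0.74 with Sox4, 0.68 with Sox11 and -0.38 with Igfbpl1, and the striatal neuron list had r = 0.69, 0.67, 0.57 and -0.56 with the same genes. In all, 161 relations to marker lists or depth were computed and 44 passed (40 without the libraries that went against their labels, the 4 lost being in the posterior hippocampus), and no member passed with the total reads of the library in the subventricular zone. The part of these lists in the members' correlations was not tested.

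**Figure D5:**
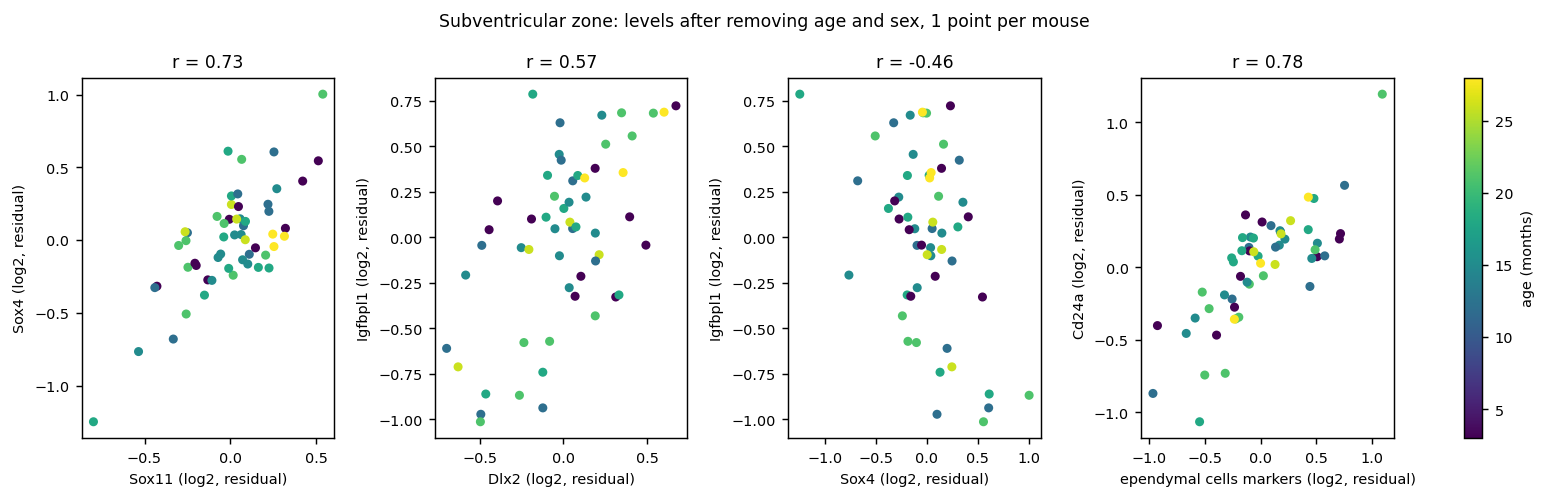
Residual log2 levels after age and sex in the subventricular zone, 1 point per mouse: Sox11 against Sox4, Dlx2 against Igfbpl1, Sox4 against Igfbpl1, and Cd24a against the summed ependymal genes. The first, second and last panels rise (r = 0.73, 0.57 and 0.78) and the Sox4 to Igfbpl1 panel falls (r = -0.46).

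The sums of these lists were also read by age, and none of their genes had a median under 0.1 CPM. The cell division sum in the subventricular zone was at 57.1 to 151 CPM (median 85.1) at 3 months and at 39.0, 46.1 and 51.7 CPM at 28 months. The striatal sum was at 655 to 2375 CPM (median 1750) and at 728, 988 and 1639 CPM, with overlap. In the corpus callosum the cell division sum was at 49.3 to 106 CPM (median 76.4) at 3 months and at 32.4, 34.5 and 37.2 CPM at 28 months. With the log2 cell division sum as a covariate, a setting added after the data were seen, the subventricular zone slope was -0.020 for Sox11 (edgeR adjusted p = 0.00025), -0.0056 for Sox4 (adjusted p = 0.47) and 0.0046 for Draxin (adjusted p = 0.81), and none of the 5 corpus callosum declines was called (adjusted p = 0.47 to 0.90). With the striatal, choroid plexus or ependymal sum as the covariate, Sox11, Sox4 and Draxin were all called in the subventricular zone, and with the ependymal sum Cd24a was called as well (slope -0.015, adjusted p = 0.012). The cell division sum was itself lower at 28 months than at 3 months, without overlap in either region. Age and this covariate are thus not independent, and the fit cannot tell their parts in a slope from each other. The part of any of these lists in the slopes was not tested.

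The genes around the members were read from fixed lists. In the subventricular zone 9 of 11 cell division genes fell with age, with a median slope of -0.056 over the list against -8.5e-05 over all genes. Of all genes tested in that region 3.67% fell. Of 18 other neuroblast and immature neuron genes 7 fell, led by Dpysl3 (-0.045, a microtubule- and actin-associated protein of growth cones), Nrep (-0.042) and Ccnd2 (-0.032, a cyclin of neural progenitors). None of 17 migration genes changed by edgeR, 5 of them having an unadjusted p under 0.05. All 10 stem and progenitor genes and all 11 cell division genes were higher in the subventricular zone than in the other regions, as were 43.6% of all genes.

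In the olfactory bulb 10 of the 18 other neuroblast genes fell and 1 rose, with Prokr2 (-0.115, a receptor needed for neuroblast migration), St8sia2 (-0.092, a polysialyltransferase of neural adhesion molecules) and Mex3a (-0.035) the steepest, and Sp8 (0.0079) the one that rose. Over all genes of the bulb 9.01% fell and 7.78% rose. None of the 9 cell division genes tested there changed by edgeR, 1 of them having an unadjusted p under 0.05, and 7 of 17 migration genes fell, Slit2, Robo1 and Robo2 among them. In the anterior hippocampus 5 of 18 other neuroblast genes fell, beside which 6 of 8 ependymal and 5 of 5 choroid plexus genes rose (4.52% of all genes fell and 6.89% rose there), and the part of that tissue in the slopes was not tested. In the corpus callosum 11 of 11 cell division genes fell, Aurkb (-0.092), Ube2c (-0.090) and Top2a (-0.089) most, and 6 of 18 other neuroblast genes, against 8.95% of all genes.

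Across the 15 region means, Dcx, Sox4 and Dlx2 were alike (r = 0.91 for Dcx with Sox4 and 0.88 for Dcx with Dlx2), while Cd24a was closest to Draxin (r = 0.79) and had r = 0.13 with Sox11. Among 14180 other genes that averaged 1 CPM or more, those whose log2 mean level over the 15 regions was most like the average of the members' standardised profiles included Sp8 (r = 0.911), Ddx60 (0.911), Lpar3 (0.905) and Wdr60 (0.897). The members themselves had r between 0.63 (Cd24a) and 0.90 (Sox4) with that average. These are descriptions over 15 points that share their mice, and no test was made of them.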

How the data were processed

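Total RNA was isolated from homogenized tissue with RNeasy columns and made into unstranded Smart-Seq2 and Nextera XT libraries, per the labels' protocols. Reads were trimmed with Trim Galore 0.3.7 and aligned with STAR 2.5.3a to GRCm38, per the submitters' processing notes, which also name DESeq2 without a role. The authors deposited 1 table of raw counts per gene, whole numbers that were not normalized. The gene annotation behind the counts is not given in the sources used here. Samples were grouped by the region, age and sex in their labels.

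Here, edgeR 4.0.16 (R 4.3.3) with TMM factors and filterByExpr over age and sex fitted each region by quasi-likelihood, with age in months and sex as terms. A further fit over all 847 libraries (15069 genes, age centred at 15.7 months) compared regions. Adjusted p-values of the fits are Benjamini-Hochberg over all genes of a fit and those of the permutation tests over the tests of a family (28 ratios, 56 pairs or 161 marker relations), with a threshold of 0.05. In that joint fit the libraries of 1 mouse are treated as independent unless the mouse enters as a block, so its p-values count libraries. Dlx2 and Igfbpl1, which lack reads in over 50% of the libraries of some regions, were compared with the other regions by ratios within mice only. CPM are counts scaled to a total of 1e6 reads in genes, without TMM factors. Correlations used log2 CPM with a prior count of 2. The p-values of the region fits and of the permutation tests count mice as replicates.

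The same mice supplied all regions, so libraries of the same mouse are paired across regions by the labels, and a fit with the mouse as a block was an alternative. The other alternatives were RLE factors, no filter, DESeq2 1.42.0, depth covariates, mice 16 to 56 alone, males alone, 12-month mice alone (for the sexes), the other regions without the choroid plexus or without the corpus callosum and caudate putamen, the 3 libraries that went against their labels left out, marker sums as covariates, and 1 mouse left out at a time (55 in the subventricular zone, 12 elsewhere). In data simulated from the subventricular zone (14411 genes), the slope fit recovered 90.8% of slopes of 0.03 and 99% of slopes of 0.06, and called 0.0774% of unchanged genes. The joint fit, simulated on 1000 genes, recovered 84% of slope differences of 0.03 and called 1.125% of unchanged genes. Each simulation gave all genes 1 fixed spread, which the joint fit was told, and drew the libraries as independent, with no effect of the mouse. These rates hold for such simulated data and do not give the rate of false calls in the real libraries.

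The members, the lists and the tests were chosen with earlier results of these data known. List genes named in the text were those past the threshold with the largest slopes, at most 3 per list and region. The change with age of the stem and progenitor list and part of the ranking of genes by likeness to the members are not reported here. The pair slopes between regions, the ratios within mice, the marker covariates, the sex comparisons without single mice, and the ratios and correlations without the 3 libraries or without single mice were added after the data were seen. Python 3.11.15, numpy 2.4.6, scipy 1.17.1 and matplotlib 3.10.9 did the rest. Promoters are from RefSeq (GRCm38.p6) and gene positions from GENCODE.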

Additional observations from a re-analysis of the deposited data

Results flagged for a closer look

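Chance would set apart about 1 in 20 groups by Dixon's test at 95%, and 13 of the 151 groups of 4 to 10 libraries held a member's value far from the rest. A single mouse gave 3 of them: mouse 44 at 21 months was high in the subventricular zone for Sox11 (74.1 CPM), Cd24a (112 CPM) and Draxin (5.40 CPM). Mouse 39 at 18 months was low there for Sox11 (31.5 CPM) and Cd24a (23.7 CPM). Dcx was high in the subventricular zone of mouse 42 at 15 months (58.1 CPM) and in the anterior hippocampus of mouse 13 at 12 months (10.5 CPM).

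In the olfactory bulb, Sox11 was high in mouse 6 at 12 months (56.6 CPM), Sox4 was high in mouse 29 at 3 months (233 CPM) and Dlx2 was low in mouse 46 at 15 months (69.3 CPM). In the hippocampus, Dlx2 was high in the anterior part of mouse 21 at 3 months (4.64 CPM), and Draxin was high there in mouse 35 at 18 months (1.29 CPM). Cd24a was high in the posterior part of mouse 38 at 15 months (14.0 CPM), which is the library labelled female with reads of Y-linked genes.

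Slopes that differed between regions by a direct test (edgeR) are listed here as well. The Draxin slope was lower than in the other regions by -0.058 log2 units per month in the subventricular zone, -0.070 in the olfactory bulb, -0.086 in the anterior and -0.093 in the posterior hippocampus. Among those other regions Draxin passed the filter of the region fits only in the corpus callosum and medulla. It passed in the olfactory bulb and anterior hippocampus only through its 3-month libraries, and failed in the posterior hippocampus. With males alone, the olfactory bulb and posterior hippocampus differences missed the threshold. Set against the corpus callosum alone, the Draxin slope of the subventricular zone differed by 0.0028 (edgeR adjusted p = 0.98). The Sox4 slope was lower in the subventricular zone than in the other regions (-0.018) and than in the olfactory bulb (-0.020). Neither Sox4 difference was called within mice 16 to 56 (edgeR adjusted p = 0.32 and 0.48). The Igfbpl1 slope was higher in the subventricular zone than in the olfactory bulb (0.066).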

How the results depend on the processing

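Of the counts of members, 327 values under alternatives stayed within 1.5 times the first and 22 did not; of single member results, 2083 kept direction and call, 56 lost the call, 34 gained it and 25 changed sign. With the mouse as a replicate block, the counts of higher members were 5, 5, 3 and 3 in the subventricular zone, olfactory bulb, anterior and posterior hippocampus and the counts with a lower slope were 2, 1, 1 and 1, and no call of a level or slope difference changed. Members that fell in the subventricular zone numbered 3 (3 to 4 when single mice were left out) and 1 with the cell division covariate. In the posterior hippocampus they numbered 3 without the filter, in mice 16 to 56 and with the striatal or ependymal covariate, 2 without the 3 libraries that went against their labels and with the choroid plexus or cell division covariate, and 1 to 2 when single mice were left out (2 without mouse 37, 38 or 57). Lower contrasts with 3 months numbered 50 of 240 in mice 16 to 56, against 57 of 246 at the same ages over all mice. In 12-month mice alone neither reported sex difference was called, and 1 other was, Cd24a in the hypothalamus (males higher by 0.90, edgeR adjusted p = 0.041). A lower slope than in the other regions was found for 1 member in the subventricular zone in mice 16 to 56 and in males alone (1 to 3 when single mice were left out, 1 without mouse 37), for 2 in the olfactory bulb in mice 16 to 56, 0 in males alone (1 to 2, with 2 without mouse 1, 2 or 3), and for 0 in the posterior hippocampus in males alone. Signs that changed belonged to slopes near 0 or to the covariate fits. In the subventricular zone Dlx2 was -0.0063 and Igfbpl1 -0.0034 in mice 16 to 56, -0.000799 and -0.0022 with the striatal covariate, and -0.0020 to 0.0044 and -0.00042 to 0.0065 when single mice were left out. With the cell division covariate Igfbpl1 was -0.0174, Draxin 0.0046 and Cd24a 0.0064 there, and in the corpus callosum Dlx2 was 0.0056, Draxin 0.0028, Sox4 0.0059 and Dcx 0.0013. Against the other regions, the Sox11 slope in the anterior hippocampus was 0.0018 in mice 16 to 56, 0.00034 in males alone and -0.0021 to 0.00065 when single mice were left out, Sox4 in the posterior hippocampus was -1.7e-05 and Dcx in the olfactory bulb 0.0032 in mice 16 to 56. The cause of these shifts was not tested. Low counts limit Draxin, and Igfbpl1 outside the subventricular zone and olfactory bulb, where most libraries hold few reads or none.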

Other observations

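Of 12 genes related to the members by family, Dclk1 and Dclk2, the doublecortin-like kinases, fell with age in the subventricular zone (slopes -0.014 and -0.0081 per month by edgeR, adjusted p = 0.025 and 0.039), where 3.67% of all genes fell. Dclk1 also fell in the anterior (-0.012) and posterior (-0.011) hippocampus, and Igfbp5 in the olfactory bulb (-0.013). All 12 were higher in the olfactory bulb than in the other regions, as were 43.3% of all genes.

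Haemoglobin genes rose with age in the subventricular zone, 4 of 5 red blood cell genes against 4.85% of all genes, led by Hbb-bt (0.119 per month, edgeR adjusted p = 0.013), Hbb-bs (0.113) and Hba-a1 (0.109). None of the 5 was called in the olfactory bulb, where 3 had an unadjusted p under 0.05.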
